A study of Saccharomyces cerevisiae with 13 samples.

Results

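Transcript levels of spermine-treated and control cultures of the budding yeast Saccharomyces cerevisiae were compared on one-colour Affymetrix arrays. Of the 13 arrays in the series, 8 belong to this comparison by their titles: 5 controls and 3 arrays of cells given spermine. The spermine cells carry the genotype delta-spe3 delta-fms1, a deletion of both genes. The control labels name no genotype, and the series title speaks of a polyamine-deficient mutant. None of the sources used here gives the dose, the treatment time or the strain background. Separate cultures are not named for the replicates, so p-values measure only how far these samples spread, which may be technical spread. Expression was measured for 5656 named genes, of which 5102 passed a filter on dim probe sets and were tested.

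Polyamines are small, positively charged amines that bind RNA and are needed for growth. Spermidine synthase, encoded by SPE3, makes spermidine from putrescine, spermine synthase (SPE4) turns spermidine into spermine, and the oxidase Fms1 turns spermine back into spermidine. A strain that lacks Spe3 and Fms1 therefore cannot regain spermidine from added spermine by that route. Spermidine also supplies the hypusine side chain that activates the translation factor eIF5A.

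The arrays did not fall into 2 groups by treatment alone. Controls 2 and 3 and spermine array 1 stood apart together from the other 5 arrays, along a first principal component that held 49.8% of the variance. Their scores on it lay between 12.2 and 28.8, against -17.8 to -10.2 for the rest. Correlations of log2 signal across genes, which are not independent replicates, were 0.966 to 0.977 among these 3 arrays, 0.965 to 0.982 among the other 5, and 0.923 to 0.964 between the 2 sets. Genes of the general stress response followed this division: relative to the control mean, their average log2 level was 1.10 on control 2, 1.13 on control 3 and 0.52 on spermine 1, against -0.90 to -0.47 on the other 5 arrays. The second component, with 13.3% of the variance, separated the treatments, with spermine arrays between 10.8 and 12.3 and controls between -10.3 and 1.43. What sets the 3 arrays apart is not given in the labels and was not tested. A fit with a term for these 3 arrays is given further below. Values without these 3 arrays (spermine 2 and 3 against controls 1, 4 and 5) and within them (spermine 1 against controls 2 and 3) are given beside the results they touch. Both fits kept the arrays of the series that lie outside this comparison, so their p-values draw on the spread of those arrays too. The median deposited signal ranged from 134 to 145 over the 8 arrays, and precision is limited by how few arrays there are.

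**Figure D1:**
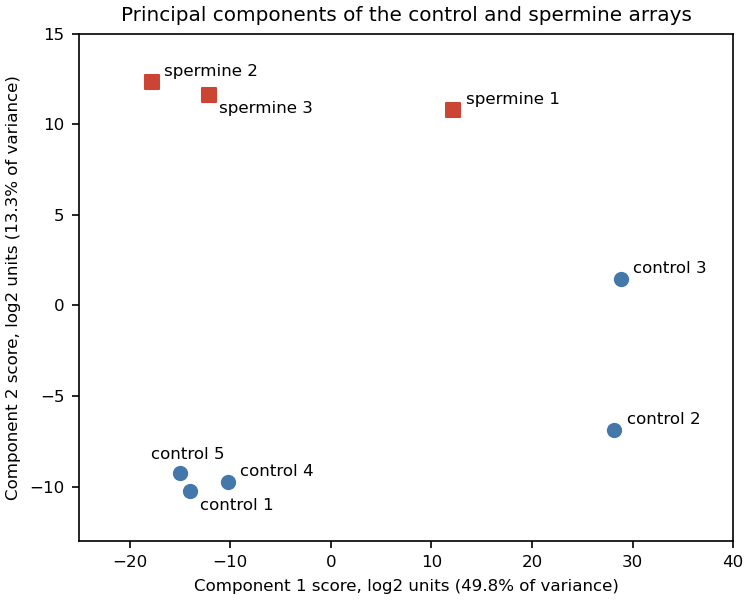
Scores of the 5 control arrays (circles) and the 3 spermine arrays (squares) on the first 2 principal components of log2 normalized signal, in log2 units. Controls 2 and 3 and spermine 1 lie at 12.2 to 28.8 on the first component and the other 5 arrays at -17.8 to -10.2, while the second component separates all spermine arrays from all controls.

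The deleted genes were examined first. SPE3 had a mean deposited signal of 5.35 ± 1.55 (SD, n = 5) on control and 2.84 ± 2.22 (SD, n = 3) on spermine arrays. FMS1 had 1.56 ± 0.514 (SD, n = 5) and 4.54 ± 3.20 (SD, n = 3). Background, taken as the 95th percentile of 19 probe sets for non-yeast sequences, was 17.6 in controls and 19.1 with spermine, so neither gene was above it in either group. STE3, the a-factor receptor of mating type alpha cells, stood at 806 ± 195 (SD, n = 5) on control and 955 ± 235 (SD, n = 3) on spermine arrays. Among genes of mating type a cells, the alpha-factor receptor STE2 averaged 18.1 and 16.2, and BAR1 and AGA2 averaged between 13.9 and 19.2. MFA1 (24.6 and 23.2) and STE6 (24.8 and 28.9) averaged slightly above background. MFA2 was higher, at 88.5 and 94.2, with single arrays from 17.0 to 150.

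A gene of arginine synthesis alone passed the threshold of an adjusted p of 0.05, and it was higher with spermine. This was ARG7 (YMR062C), the mitochondrial ornithine acetyltransferase of arginine synthesis. ARG7 had quantile normalized signals of 256, 216, 247, 266 and 260.3 on controls 1 to 5 and of 542, 551 and 606 on spermine arrays 1 to 3. Every spermine array lay at more than double the level of the control mean, and the groups did not overlap. The means were 249 ± 19.9 (SD, n = 5) and 566 ± 34.5 (SD, n = 3), a 2.28-fold rise (log2 1.19 ± 0.14, SE, 95% interval 0.88 to 1.495, limma adjusted p = 0.00403 by Benjamini-Hochberg over 5102 genes). The difference was of like size without the 3 arrays that stand apart (1.15, limma adjusted p = 0.058) and within them (1.23). Without them ARG7 did not pass the threshold, and within them spermine is 1 array, which shows no spread of its own. Leaving out spermine array 3 also ended the call (log2 1.14, limma adjusted p = 0.0672).

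The called gene was 0.0196% of those tested, and no gene was called lower (0%). At an unadjusted limma p under 0.05, 269 genes stood above control (5.27%) and 164 below (3.21%), 433 in all (8.49%) where 255 would be expected with no difference. All 3 spermine arrays lay above all 5 controls for 196 genes (3.84%) and below them for 131 (2.57%). At an unadjusted p under 0.01 the counts were 83 above (1.63%) and 49 below (0.96%). Of all genes, 2744 had a difference above 0 (53.8%), 25 one of 1 or more (0.49%) and 17 one of -1 or less (0.333%), on the log2 scale. The median log2 difference over all genes was 0.02, its 5th and 95th percentiles were -0.44 and 0.49, and the median standard error was 0.21. Counts of list members below are to be read against these shares.

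Below ARG7, 14 genes reached adjusted p-values under 0.1 without passing the threshold, 11 above control and 3 below. Of those, 9 share the lowest limma adjusted p, 0.0632. HOM2, aspartate semialdehyde dehydrogenase, had signals of 1044, 1136, 1172, 1287 and 1452 on controls 1 to 5 and 2028, 1941 and 2226 with spermine (log2 0.77 ± 0.14). WTM2, a transcriptional modulator, had 438, 361, 363, 343 and 347 on the controls and 633, 642 and 565 with spermine (log2 0.73 ± 0.13). Neither gene overlapped between the groups. MEP3, an ammonium permease, had 144, 204, 164, 111 and 146 on the controls and 309, 288 and 345 with spermine (log2 1.05 ± 0.19). Its difference was 1.25 without the arrays that stand apart and 0.76 within them. YHI9 had 43.5, 35.03, 55.7, 54.03 and 66.04 on the controls and 104, 99.4 and 118 with spermine (log2 1.11 ± 0.20). YEL073C, whose probe set may bind several transcripts, had control signals of 499 to 767 and spermine signals of 1144 to 1708. The transporter gene COT1, which moves zinc and cobalt into the vacuole, stood 0.87 ± 0.17 above control (limma adjusted p = 0.0715). SRY1, 3-hydroxyaspartate dehydratase, and COA6, a cytochrome oxidase assembly factor, were picked out after their values were seen and differed by log2 0.96 ± 0.20 and 0.72 ± 0.15 (both limma adjusted p = 0.0924). SRY1 depended on which arrays were used, at 1.30 without the arrays that stand apart and 0.35 within them. On the lower side were the G1 cyclin CLN2, the biotin precursor transporter BIO5, both described below, and FKS3, a homologue of glucan synthase subunits, whose signals of 122, 82.99, 92.9, 101 and 101 in controls compare with 44.2, 53.2 and 52.8 with spermine (log2 -0.99 ± 0.21, limma adjusted p = 0.0924).

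**Figure D2:**
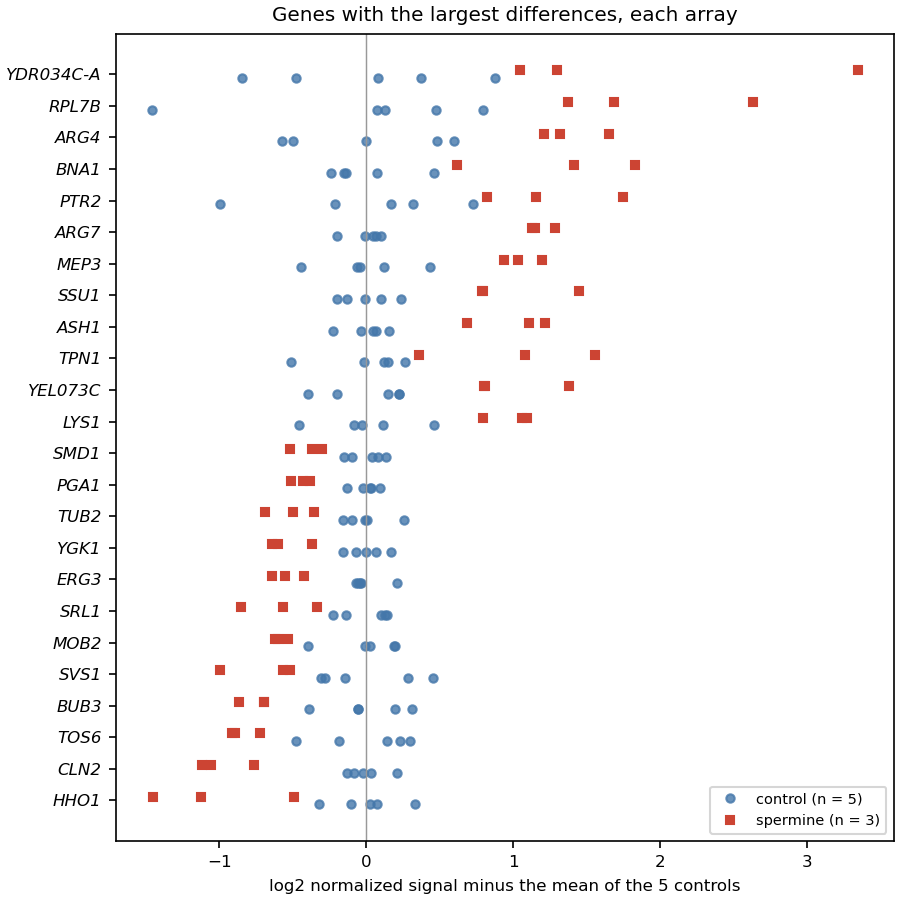
Log2 normalized signal minus the mean of the 5 controls, for the 12 largest positive and 12 largest negative differences among genes at an unadjusted p under 0.01 without overlap; each circle is 1 control array and each square 1 spermine array. ARG7 is the only gene of these that passed the threshold, and the signals of YDR034C-A and RPL7B on spermine array 2 (2923 and 4247) lie above those of the other spermine arrays.

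Arginine synthesis had 8 tested genes of 10 listed, and all 8 lay above control. Besides ARG7, 3 passed an unadjusted p under 0.05 (ARG1, ARG2 and ARG4), and the median log2 difference was 0.55. ARG4, argininosuccinate lyase, which completes the pathway, had signals of 1333, 591, 880.2, 623 and 1228 on controls 1 to 5 and 2194, 2038 and 2767 with spermine. Controls spread more than 2-fold for this gene, yet all lay under the lowest spermine array (log2 1.39 ± 0.27, limma adjusted p = 0.0632). ARG1, argininosuccinate synthetase, reached 1205, 819.8 and 1361 with spermine, and spermine array 2 fell within the control range of 548 to 846 (log2 0.63 ± 0.17). ARG2, which makes acetylglutamate, the first intermediate, had a log2 difference of 0.73 ± 0.26 with overlapping groups. CPA1, a carbamoyl phosphate synthetase subunit, was nearest to no difference, at 0.11. The list's median was 0.57 without the arrays that stand apart and 0.69 within them. Averaged over its genes, the list lay 0.56 to 0.76 above its control mean on the spermine arrays, against -0.14 to 0.20 on the controls.

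All 13 genes of leucine, isoleucine and valine synthesis lay above control, 10 of them at an unadjusted p under 0.05 and 5 without overlap between the groups. The median was 0.49, with 0.41 without and 0.59 within the arrays that stand apart. LEU4, the isopropylmalate synthase that commits carbon to leucine, had signals of 2222, 1673, 1004, 1816 and 2751 on controls 1 to 5 and 3270.4, 3108 and 4017 with spermine (log2 0.94 ± 0.24, limma adjusted p = 0.226). The mitochondrial carrier OAC1, which moves oxaloacetate and isopropylmalate, had 1847, 981, 1131, 1261 and 1651 on the controls and 1961, 2165 and 2764 with spermine (log2 0.77 ± 0.20). Control 3 was the lowest array for LEU4, and controls 1 and 5 were the nearest to the spermine arrays for both genes. LEU4 differed by 0.66 without the arrays that stand apart and by 1.34 within them. The catalytic subunit of acetolactate synthase, ILV2, and isopropylmalate isomerase, LEU1, differed by 0.53 ± 0.16 and 0.52 ± 0.16. The transaminase gene BAT1 differed by 0.51, but by 0.19 without the arrays that stand apart and 1.09 within them. LEU3, the regulator of the leucine genes, had a difference of 0.15, the smallest of the list. None of the 13 passed the adjusted threshold.

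Histidine synthesis had the largest median of the lists, 0.69, with 7 of 7 genes above control, 4 at an unadjusted p under 0.05 and 2 without overlap. HIS3, imidazoleglycerol-phosphate dehydratase, had 735, 945, 1106, 727 and 669 on the controls and 1236, 1238 and 1525 with spermine (log2 0.69 ± 0.18, limma adjusted p = 0.226). Its difference was 0.95 without the arrays that stand apart and 0.27 within them, and controls 2 and 3 were its highest controls. HIS5, histidinol-phosphate aminotransferase, stood at 639, 291 and 596 with spermine, and spermine array 2 lay among the controls (166 to 361). The multifunctional HIS4 had 3796, 3699.9 and 6407 with spermine against 1361 to 3725 in controls, and the first enzyme of the pathway, HIS1, had 2979.8, 3599.6 and 4989.8 against 1585 to 3458. Spermine array 3 was the highest array for both, and without it the list median was 0.50. Within the arrays that stand apart the median was 0.27.

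Of lysine synthesis, 9 of 9 tested genes lay above control, with a median of 0.25, and 3 of them at an unadjusted p under 0.05, all without overlap. LYS1, saccharopine dehydrogenase, the last enzyme, had 385, 274, 303, 204 and 264 on the controls and 584, 485 and 596 with spermine (log2 0.98 ± 0.19, limma adjusted p = 0.0632). LYS2, aminoadipate reductase, had 495, 475, 545, 476 and 485 on the controls and 715, 685 and 861 with spermine (log2 0.60 ± 0.16, limma adjusted p = 0.226). The controls of LYS2 lay close together, and every spermine array was above them. Of the homocitrate synthases that open the pathway, LYS21 stood 0.60 ± 0.16 above control and LYS20 0.16 ± 0.11, the latter with overlapping groups. The list median ranged from 0.17 without spermine array 1 to 0.42 without spermine array 3, and was 0.18 without the arrays that stand apart and 0.49 within them.

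In aromatic amino acid synthesis, 10 of 13 genes lay above control, 6 at an unadjusted p under 0.05 (median 0.34). ARO1, which carries out the middle steps of chorismate synthesis, had 2576, 3157, 3164, 2967 and 2876 on the controls and 4263, 3878 and 4395 with spermine (log2 0.51 ± 0.14). The DAHP synthases ARO3 and ARO4, which start the pathway, differed by 0.61 ± 0.17 and 0.49 ± 0.18, and neither overlapped. The tryptophan branch genes TRP2, TRP3, TRP4 and TRP5 differed by 0.43, 0.49, 0.66 and 0.27. The 3 members below control were TRP1 of the same branch (-0.26), chorismate mutase ARO7 (-0.29) and prephenate dehydrogenase TYR1 (-0.28). Of the genes that lead from aspartate to threonine, and those for asparagine, serine, glycine and proline, 14 of 17 lay above control, with a median of 0.27 and 2 at an unadjusted p under 0.05, HOM2 and HOM3. HOM3, aspartate kinase, had 629, 531 and 656 with spermine, and spermine array 2 lay inside the control range of 256 to 539 (log2 0.69 ± 0.32). The 3 members of this list below control were HOM6 (-0.18 ± 0.15), THR4 (-0.10 ± 0.18) and SER3 (-0.57 ± 0.41), and THR1 differed by 0.10 ± 0.24. Without control 2 the median of this list was 0.15.

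Methionine synthesis and sulfate assimilation had 21 of 26 genes above control, 7 at an unadjusted p under 0.05, and a median of 0.26. The 7 were STR2, STR3, MET6, MET7, MET12, MET13 and MET22. The sulfate transporter genes SUL1 and SUL2 were not among them, with differences of 0.32 ± 0.97 and 0.10 ± 0.56. Nor were the sulfate reduction genes MET3 (0.01 ± 0.41), MET14 (0.39 ± 0.38), MET16 (-0.16 ± 0.47), MET5 (0.29 ± 0.34) and MET10 (0.39 ± 0.41). STR3, cystathionine beta-lyase, had signals of 50.8, 69.3, 98.1, 52.5 and 61.8 on controls 1 to 5 and 163, 141 and 143 with spermine (log2 1.21 ± 0.36, limma adjusted p = 0.288). STR2, cystathionine gamma-synthase, had 182, 196, 198, 194 and 216 on the controls and 390.1, 238 and 339 with spermine (log2 0.68 ± 0.18, limma adjusted p = 0.226). Both move sulfur from cysteine towards methionine, and CYS4, which works in the opposite direction, was the 1 member below control at that p (log2 -0.31 ± 0.12, 3285 to 4479 with spermine against 4388 to 5020.0). CYS4 differed by -0.43 without the arrays that stand apart, -0.07 within them and -0.20 without spermine array 3, and CYS3, the next enzyme towards cysteine, by -0.03. MET13, methylenetetrahydrofolate reductase, had 1449, 991 and 1449 against 533 to 837 in controls (log2 0.86 ± 0.23). Without the arrays that stand apart the list median was 0.37, and within them 0.10. SSU1, the sulfite efflux pump, which is outside the list, had 489, 528, 580.3, 449 and 429 on the controls and 847, 851 and 1338 with spermine (log2 1.01 ± 0.21, limma adjusted p = 0.102).

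Regulators of amino acid synthesis were looked at next. GCN4, the activator of most of the enzyme genes above, whose output is set mainly by translation of its mRNA, had 4149, 4811, 3942, 4938 and 5693 on the controls and 4373, 4672 and 5000.3 with spermine. Its difference was 0.00 ± 0.14 (95% interval -0.29 to 0.30), and spermine arrays lay within the control range. BAS1, an activator of histidine and purine genes, had 217, 148, 184, 196 and 238 on the controls and 286, 292 and 294 with spermine (log2 0.58 ± 0.16, limma adjusted p = 0.25), without overlap. Over the 14 tested regulators, 13 lay above control, with a median of 0.17 and 1 at an unadjusted p under 0.05. For the 19 aminoacyl-tRNA synthetases the median was 0.02, with none at that p.

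**Figure D3:**
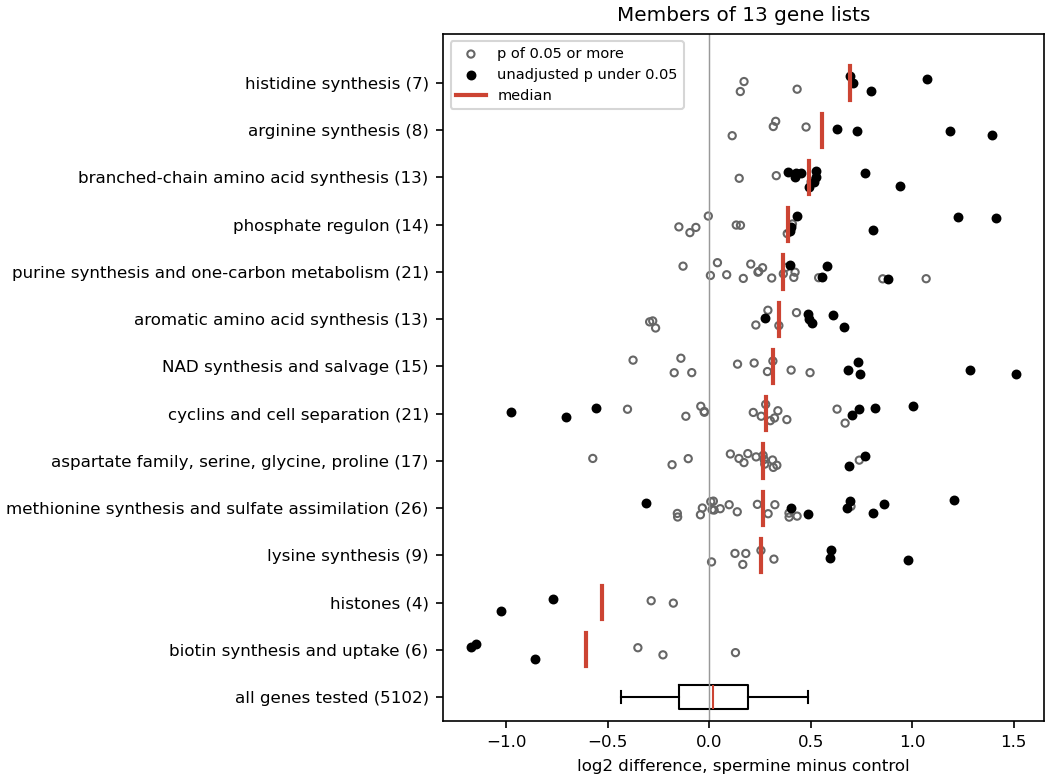
Log2 difference of spermine minus control for each tested member of 13 gene lists, with the number tested in parentheses; filled points are at an unadjusted p under 0.05 and the vertical bar is the list median. The box below gives all 5102 genes (quartiles, whiskers at the 5th and 95th percentiles, -0.44 and 0.49). Every member of the arginine, histidine, branched-chain and lysine lists lies above 0, and the biotin and histone medians lie at -0.61 and -0.53.

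NAD is made in yeast from tryptophan by the BNA enzymes. Of the 15 genes of NAD synthesis and salvage, 11 lay above control and 5 at an unadjusted p under 0.05, all of them BNA genes, with a list median of 0.31. BNA1, 3-hydroxyanthranilate dioxygenase, had 748, 929, 1211, 793 and 801 on the controls and 3127, 1349.8 and 2348 with spermine (log2 1.28 ± 0.24, limma adjusted p = 0.0632). Spermine array 2 was the nearest to the controls, and its place below the other spermine arrays recurred for BNA4, kynurenine 3-monooxygenase, with 256, 152 and 250.5 against 121 to 138 in controls (log2 0.74 ± 0.16, limma adjusted p = 0.118). BNA5, kynureninase, had 426, 345 and 439.8 against 196 to 302 (log2 0.68 ± 0.16, limma adjusted p = 0.192). BNA6, which makes nicotinate mononucleotide, differed by 0.73 ± 0.25 with overlapping groups. BNA2, which opens the pathway by oxidising tryptophan, had signals near background, 5.94, 42.6, 42.7, 4.80 and 12.8 on controls 1 to 5 and 63.7, 26.8 and 42.4 with spermine. Its controls 2 and 3 lay as high as spermine array 3. The salvage genes NPT1 and PNC1 had differences of -0.09 and -0.38. A vitamin B6 transporter gene, TPN1, had 457, 513, 555, 325 and 502 on the controls and 1361, 594 and 978 with spermine (log2 0.999 ± 0.31).

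Of the 21 genes of purine synthesis and one-carbon metabolism, 20 lay above control, with a median of 0.36 and 4 at an unadjusted p under 0.05. The 4 were ADE8, ADE12, GCV3 and BAS1, the last also counted among the regulators above. The list also holds the uracil permease gene FUR4 (0.24). The list's median was 0.51 without the arrays that stand apart and 0.11 within them, and without control 5 it was 0.23. GCV3, the H protein of glycine decarboxylase, shows the pattern, with 2396, 4438, 5133, 2918 and 2403 on controls 1 to 5 and 6785, 4435 and 7343 with spermine (log2 0.88 ± 0.26). Controls 2 and 3 were above controls 1, 4 and 5 and reached the level of spermine array 2. ADE8, glycinamide ribotide transformylase, differed by 0.55, but by 0.96 without the arrays that stand apart and -0.09 within them. ADE12, adenylosuccinate synthase, had 2385, 2447 and 3085 with spermine against 1773 to 2213 (log2 0.40 ± 0.14), without overlap.

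The genes of phosphate uptake and storage gave a median of 0.39, with 10 of 14 above control and 6 at an unadjusted p under 0.05. Their values rested in part on spermine array 2, without which the median was 0.14. PHO84, the high-affinity phosphate transporter, had 242, 220.0, 182, 342 and 167 on controls 1 to 5 and 303, 2129 and 322 with spermine (log2 1.41 ± 0.50, or 0.49 without that array). PHO89, the sodium-coupled phosphate transporter, had 395, 928, 727, 633 and 397 on the controls and 808, 1893 and 1644 with spermine (log2 1.22 ± 0.32, limma adjusted p = 0.226). Without the arrays that stand apart PHO89 was called higher, at 1.93 (limma adjusted p = 0.0403), the 1 gene called in that set (0.0196% of genes), while within those arrays the difference was -0.02. PHO4, the activator of the regulon, had 145, 163, 226, 121 and 145 on the controls and 283, 253 and 286 with spermine (log2 0.81 ± 0.21, limma adjusted p = 0.226). All 3 spermine arrays were above every control for PHO4, as they were for the polyphosphate polymerase VTC4 (0.43 ± 0.14) and for PHO81, the inhibitor of the Pho80-Pho85 kinase (0.40 ± 0.14).

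Biotin synthesis and uptake went the other way, with 5 of 6 genes below control, 3 of them at an unadjusted p under 0.05 and a median of -0.61. BIO5, which imports a biotin precursor, had 62.7, 59.5, 76.8, 36.7 and 59.7 on the controls and 20.5, 30.3 and 26.6 with spermine (log2 -1.18 ± 0.24, limma adjusted p = 0.0789). Its spermine signals lay close to background, its lowest control was control 4, and its difference was -0.86 without the arrays that stand apart and -1.73 within them. BIO2, biotin synthase, had 1119, 784, 782, 332 and 1053 on the controls and 587, 277 and 239.8 with spermine (log2 -1.15 ± 0.35, limma adjusted p = 0.298), with -1.504 without and -0.42 within those arrays. BIO3, diaminopelargonate aminotransferase, had 243, 243, 279, 87.2 and 246 on the controls and 165, 123 and 70.2 with spermine (log2 -0.86 ± 0.35). BIO4 differed by -0.23 ± 0.17 with overlapping groups, and by -0.09 without the arrays that stand apart and -0.46 within them. VHT1 and BPL1 differed by -0.35 ± 0.34 and 0.13 ± 0.24. For BIO2 and BIO3, control 4 fell among the spermine arrays and the other 4 controls lay above all of them. Without control 4 the list median was -0.94, and its average level on that array, -0.84 relative to the control mean, compares with -0.78 to -0.46 on the spermine arrays.

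**Figure D4:**
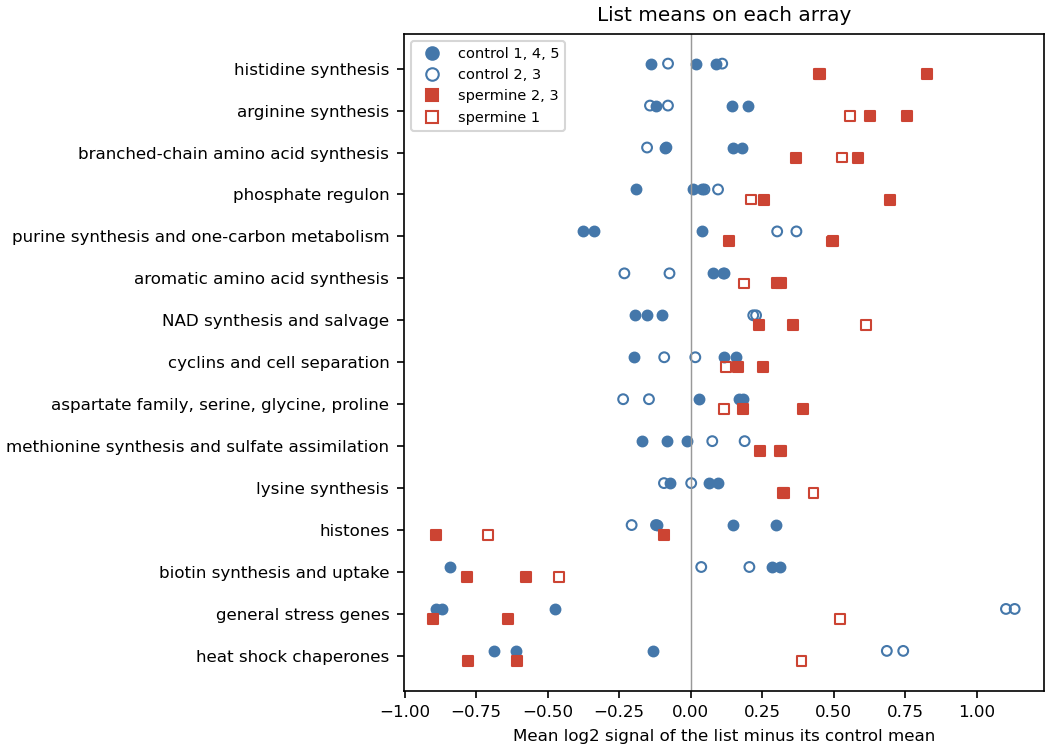
Average log2 signal of the genes of 15 lists on each array, minus the list's control mean; circles are controls, squares are spermine arrays and open symbols are the 3 arrays that stand apart. The arginine, branched-chain, histidine, lysine, aromatic, methionine, NAD and phosphate lists separate the groups, the NAD list narrowly (controls up to 0.23, spermine from 0.24). Branched-chain values are -0.15 to 0.18 in controls and 0.37 to 0.59 with spermine. Control 4 lies at -0.84 in the biotin list, and the stress lists follow the open symbols.

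Several genes that are switched on in daughter cells at the end of mitosis lay above control, and the G1 cyclin genes CLN1, CLN2 and PCL1 lay below. Cultures were measured whole, so more cells at a given stage and more RNA per cell cannot be told apart. Of 21 tested cyclin and cell separation genes, 4 were above control at an unadjusted p under 0.05 (ASH1, DSE3, DSE4 and EGT2) and 3 below (CLN1, CLN2 and PCL1), and none of these 7 overlapped between the groups. ASH1, a repressor of mating type switching that is made at the end of mitosis for daughter cells, had 1021, 953, 1088, 835 and 1009 on the controls and 1571, 2107 and 2267 with spermine (log2 1.002 ± 0.25, limma adjusted p = 0.22). The difference of ASH1 was 1.20 without the arrays that stand apart and 0.63 within them. DSE4 and EGT2, which help daughter cells detach, had 911, 800.4 and 1066 against 306 to 655 in controls and 2294, 2522 and 2608 against 869 to 1911 (log2 0.82 ± 0.32 and 0.74 ± 0.31). DSE3, another daughter-specific gene, had 88.1, 88.9, 76.0, 49.2 and 74.4 on the controls and 137, 91.4 and 138 with spermine (log2 0.70 ± 0.28). Spermine array 2 thus lay only just above control 2 for DSE3. Control 4 was the lowest control for DSE3, DSE4 and EGT2. The median of the 21 genes was 0.28, and 0.20 without control 4. FAR1, an inhibitor of the G1 cyclin kinase from the mating pathway list, had 590.3, 321, 415, 415 and 569 on the controls and 717, 751 and 863 with spermine (log2 0.78 ± 0.22, limma adjusted p = 0.251).

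CLN2, a G1 cyclin that drives entry into the cycle, had 312, 367, 325, 290.1 and 300.3 on controls 1 to 5 and 187, 153 and 147 with spermine. All 3 spermine arrays lay well below all 5 controls (log2 -0.98 ± 0.19, 1.97-fold lower, limma adjusted p = 0.0632), and the difference was -1.01 without the arrays that stand apart and -0.88 within them. Its partner CLN1 had 66.5, 53.4 and 54.7 against 80.04 to 89.1 in controls (log2 -0.56 ± 0.20). PCL1, a G1 cyclin of the Pho85 kinase, had 66.9, 96.3 and 69.3 against 102 to 145 (log2 -0.70 ± 0.29). The 12 largest negative differences included 3 genes for cell wall or surface proteins, while the 28 listed cell wall genes had a median of -0.04, with 3 below control at an unadjusted p under 0.05. TOS6 had 3885, 4141, 4325, 2533 and 3108 on the controls and 2137, 1899 and 1875 with spermine (log2 -0.84 ± 0.26), SVS1 had 2320.1, 2407 and 1725 against 2782 to 4711 (log2 -0.69 ± 0.21), and SRL1 had 5106, 6226 and 7313 against 7887 to 10158 (log2 -0.59 ± 0.17). None of these passed the adjusted threshold. Other G1 cyclin genes lay above control without passing an unadjusted p of 0.05, CLN3, which acts upstream of CLN1 and CLN2, at 0.28 and PCL2 at 0.22. The mitotic cyclins CLB1 and CLB2 had differences of -0.40 and -0.02.

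Of 10 histone genes, 4 could be tested with a probe set of their own, and all 4 lay below control (median -0.53), 2 of them at an unadjusted p under 0.05. HHO1, the linker histone, had 641, 474, 519.5, 409 and 536 on the controls and 186, 234 and 362 with spermine (log2 -1.02 ± 0.27, 2.03-fold lower, limma adjusted p = 0.226), and the difference was -0.84 without the arrays that stand apart and -1.41 within them. HTB2, one of the H2B genes, had 2648, 1897, 1953, 1605 and 2884 on the controls and 1339, 798 and 1866 with spermine (log2 -0.77 ± 0.26), and spermine array 3 lay within the control range. Its difference was -0.44 without spermine array 2, and the list median without that array was -0.27. The second H2B gene, HTB1, and the H2A.Z gene HTZ1 differed by -0.18 ± 0.20 and -0.29 ± 0.23. Others of the 12 largest negative differences follow. The spindle checkpoint gene BUB3 had 194, 194 and 173 against 241 to 391 in controls (log2 -0.76 ± 0.22), and the beta-tubulin gene TUB2 had 1721, 2173 and 1963 against 2492 to 3315 (log2 -0.52 ± 0.15). MOB2, the partner of the Cbk1 kinase of daughter cells, had 193, 195 and 205 against 226 to 339.8 (log2 -0.59 ± 0.18), on a probe set that may bind several transcripts.

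**Figure D5:**
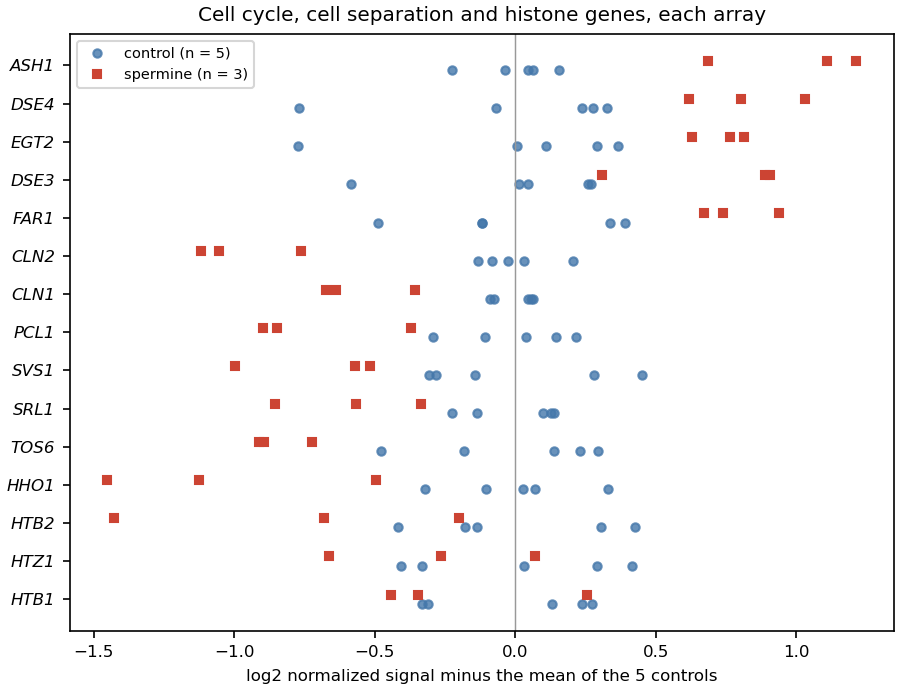
Log2 normalized signal minus the mean of the 5 controls for cell cycle, cell separation and histone genes; each circle is 1 control array and each square 1 spermine array. The spermine arrays of ASH1, DSE3, DSE4, EGT2 and FAR1 lie above every control and those of CLN1, CLN2, PCL1, SVS1, SRL1, TOS6 and HHO1 below, while HTB1, HTB2 and HTZ1 overlap.

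Several chaperones of the endoplasmic reticulum stood below control. Of 23 genes of the unfolded protein response, 7 were lower at an unadjusted p under 0.05 (KAR2, LHS1, SIL1, SCJ1, JEM1, MPD1 and ERJ5) and 1 was higher (INO1), with a list median of -0.17. That median was -0.09 without the arrays that stand apart, -0.23 within them and -0.09 without spermine array 3. Of the 23 genes, 15 lay below control and 8 above. PDI1, EUG1 and ERO1 differed by -0.14, -0.13 and -0.17, and DER1 and HRD3 by 0.27 and 0.24, none at that p. ERJ5 differed by -0.75 without the arrays that stand apart, -0.13 within them and -0.28 without spermine array 2. MPD1, of the protein disulphide isomerase family, had 206, 386, 284, 212 and 154 on the controls and 131, 128 and 124 with spermine (log2 -0.89 ± 0.24, limma adjusted p = 0.237). The spermine arrays of MPD1 lay close together below a wide control range, and the difference was -0.58 without the arrays that stand apart and -1.34 within them. JEM1, a DnaJ partner of Kar2, had 67.7, 97.6, 94.4, 78.95 and 78.6 on the controls and 59.4, 56.9 and 41.05 with spermine (log2 -0.68 ± 0.18). KAR2, the chaperone BiP, had 4544, 3835 and 4967 against 4867 to 6522 in controls (log2 -0.30 ± 0.13), and its exchange factors LHS1 and SIL1 differed by -0.32 and -0.34. Without the arrays that stand apart KAR2, LHS1 and SIL1 differed by -0.20, -0.21 and -0.16, and within them by -0.44, -0.52 and -0.68. KAR2 was -0.19 without spermine array 2. HAC1, the activator of these genes, whose activity depends on splicing of its mRNA, differed by 0.25 ± 0.19 (95% interval -0.16 to 0.65). INO1, the first enzyme of inositol synthesis, had 1745, 915 and 1053 with spermine against 484 to 1056 in controls (log2 0.81 ± 0.27).

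Genes that make or carry polyamines, or that act on their synthesis, were examined next. None of the 5 tested genes of polyamine metabolism and none of 14 of transport passed an unadjusted p under 0.05, and the medians were 0.00 and 0.18. The transport median was 0.22 without and 0.07 within the arrays that stand apart, and 0.06 without control 4. SPE1, ornithine decarboxylase, the first step, had 884, 776, 1066, 768 and 849.9 on the controls and 1156, 829 and 952 with spermine (log2 0.17, 95% interval -0.28 to 0.61). SPE2, S-adenosylmethionine decarboxylase, had 1127, 1024, 1168, 1109.5 and 874 on the controls and 772, 987 and 882 with spermine (log2 -0.27, -0.71 to 0.17), and the spermine synthase SPE4 had 162, 122, 135, 232 and 199.9 on the controls and 149.9, 160.1 and 136 with spermine (log2 -0.16, -0.63 to 0.32). Antizyme, OAZ1, which destabilises ornithine decarboxylase and is controlled by frameshifting, differed by 0.00 (-0.41 to 0.41). These groups overlapped for all 4 genes. Among transporters, TPO2, a polyamine exporter of the plasma membrane, had 2533, 2998, 2447, 2845 and 2173 on the controls and 3885, 4488 and 2680.0 with spermine (log2 0.48, -0.13 to 1.09), on a probe set that may bind several transcripts. TPO5, an exporter of secretory vesicles, had 229, 219.9, 305, 238 and 220.2 on the controls and 303, 349 and 247 with spermine (log2 0.30, -0.04 to 0.65). The exporter TPO1 differed by 0.14 (-0.35 to 0.63) and TPO4 by -0.37 (-0.996 to 0.26). The uptake genes DUR3 and SAM3 differed by -0.38 (-1.26 to 0.50) and 0.23 (-0.39 to 0.84), and the permease regulator gene AGP2 by 0.28 (-0.30 to 0.86). The kinase genes PTK1, PTK2 and SKY1, which affect polyamine uptake, differed by 0.21, -0.14 and 0.26. The probe sets of SAM3 and PTK1 may bind several transcripts. PTK2 was 0.30 without the arrays that stand apart and -0.77 within them.

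The eIF5A genes were examined because their protein needs spermidine for its hypusine. HYP2, the gene for the aerobic form, had 14607, 12710.2, 13848, 13848 and 14900.0 on the controls and 11624, 13408 and 13848 with spermine (log2 -0.11, -0.29 to 0.06). ANB1, the form made without oxygen, had 336, 283, 302, 133 and 291 on the controls and 252, 121 and 203 with spermine (log2 -0.48, -1.23 to 0.27), control 4 lying with the spermine arrays. The hypusine enzymes DYS1, deoxyhypusine synthase, and LIA1, deoxyhypusine hydroxylase, differed by -0.13 (-0.62 to 0.36) and 0.15 (-0.36 to 0.65). None of the 4 reached an unadjusted p under 0.05.

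Of the remaining large differences, YDR034C-A had 372, 159.5, 206, 303 and 528 on controls 1 to 5 and 707, 2923 and 593 with spermine (log2 1.90 ± 0.47, or 1.17 without spermine array 2). RPL7B, a gene for a large-subunit ribosomal protein with a near-identical copy, had 721, 249, 950.2, 1189 and 748 on the controls and 1775, 4247 and 2201 with spermine (log2 1.89 ± 0.57, or 1.53). Both have probe sets that may bind several transcripts, and spermine array 2 was the highest for both. PTR2, the di- and tripeptide transporter, had 1026, 536, 697, 312 and 776 on the controls and 1097, 1382 and 2082 with spermine (log2 1.24 ± 0.36). ERG3, the sterol C-5 desaturase, lay lower, with 5071, 4287, 4232, 4263 and 4182 on the controls and 2821, 3270.4 and 2998 with spermine (log2 -0.54 ± 0.12, limma adjusted p = 0.153), and control 1 was its highest array. YGK1, PGA1, which acts in GPI anchor synthesis, and SMD1, a core protein of spliceosomal particles, differed by -0.54 ± 0.15, -0.44 ± 0.12 and -0.40 ± 0.13, each without overlap.

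Of 45 general stress genes, 38 lay below control and none reached an unadjusted p under 0.05, with a median of -0.23. That median was 0.00 without the arrays that stand apart and -0.64 within them, and over single arrays left out it ran from -0.53 without spermine array 1 to -0.04 without control 3. CTT1, the cytosolic catalase, had 672, 3699.9, 3066, 657 and 526 on the controls and 1612, 208 and 508 with spermine, so that controls 2 and 3 and spermine array 1 were its 3 highest arrays. The 120 ribosome biogenesis genes averaged -0.29 and -0.27 on controls 2 and 3 relative to the control mean, against 0.07, 0.33 and 0.16 on controls 1, 4 and 5. On spermine array 1 they averaged 0.16. They thus followed the division of the 3 arrays among the controls but not on spermine array 1. Their list had a median of 0.10, which was -0.10 without the arrays that stand apart, 0.43 within them and -0.01 without spermine array 2. For 81 cytosolic ribosomal protein genes the median was 0.17, with 67 above control, 7 at an unadjusted p under 0.05 above and 1, RPL15B, below.

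With a term in the fit for the 3 arrays that stand apart, which were set apart by expression values of the same data, 15 genes were called higher with spermine (0.294%) and 2 lower (0.0392%). The 15 were ARG7, ARG4, LYS1, HOM2, BNA1, BNA6, WTM2, YEL073C, AAP1, RPS28B, MEP3, YHI9, COT1, INO1 and ADH5, and the 2 were CLN2 and FKS3. ARG4 was then 1.37 (limma adjusted p = 0.0323), BNA1 1.32 (limma adjusted p = 0.0102), LYS1 0.99 (limma adjusted p = 0.035) and CLN2 -0.96 (limma adjusted p = 0.031). AAP1, an aminopeptidase, shows how the term acts: its signals were 328, 101, 119.6, 338 and 339 on controls 1 to 5 and 236, 607 and 511 with spermine, so that each spermine array lay above the controls of its own set, although the groups overlapped as a whole. INO1 had the same layout in the other direction of the division, with controls 2 and 3 at 1056 and 963 and spermine array 1 at 1745. With limma's array weights instead of the term, 34 genes were called higher (0.666%) and 12 lower (0.235%). RPS28B, a small-subunit ribosomal protein gene on a probe set that may bind several transcripts, was in the fit with the term 0.75 and ADH5, an alcohol dehydrogenase, 1.11.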

How the data were processed

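Total RNA was biotin-labelled and hybridised to Affymetrix arrays, per the labels. The authors deposited linear intensities of each probe set, made with MAS5 per the submitters' processing notes, which give no version. Their trimmed mean was near 500 on each array. Of 9335 probe sets, 60 were controls, 6504 name 1 gene, 328 several and 2443 none. Deposited intensities of all 13 arrays were quantile normalized and taken to log2, without a pseudocount. The dimmest 25% of probe sets (mean signal under 40.4) were left out, and the brightest probe set stood for a gene, 5102 in all. A model of 3 group means over 13 arrays (10 residual degrees of freedom) was fitted in R 4.3.3 with limma 3.58.1, its variance prior following the mean intensity, and spermine minus control alone is reported. Adjusted p-values are Benjamini-Hochberg, threshold 0.05, and log2 differences carry ± their standard error. Groups came from sample titles. Interval bounds are at 95%.

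The members and gene lists were chosen with earlier results of these data known. Lists were described by counts and medians, without a test. Named genes are the called gene; the 12 largest positive and 12 largest negative differences at an unadjusted p under 0.01, without overlap, with at least 1 group mean above the median gene; members of the 13 lists (of 50) with a median of 0.25 or more in size; polyamine and eIF5A genes; and genes called in the fit with a term for the arrays that stand apart. Genes outside this rule were named for a list's count or after their values were seen. No 2 arrays were identical (0 of 28 pairs). Same-numbered control and spermine arrays did not deviate together (correlations of -0.58 to -0.27). The fit was tested on simulated data with independent noise on each array. Those data hold no arrays that stand apart together, so they do not show how the fit behaves with such arrays. The comparison within controls 2 and 3 and spermine 1 was added after the data were seen. Figures used matplotlib 3.10.9 in Python 3.11.15.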

Additional observations from a re-analysis of the deposited data

Results flagged for a closer look

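In 11 of 173 control groups tested, 1 control lay far from the other 4, by more than the critical value of Dixon's ratio for 5 samples, 0.71; chance gives about 5% of groups. Control 1 was the high array for ERG3, the sterol desaturase, at 5071 against 4182 to 4287 on the others, and for WTM2, at 438 against 343 to 363. It was the low array for ARO3, a DAHP synthase, at 1544 against 2210.1 to 2459. Control 4 was low for BIO3, at 87.2 against 243 to 279, for ANB1, at 133 against 283 to 336, and for the average of the biotin list, at -0.84 against 0.04 to 0.31 relative to the control mean. Control 3 was high for TPO5, at 305 against 220 to 238, and low for the choline permease gene HNM1, at 1583 against 1933 to 2062. Control 5 was low for VTC4, at 824 against 956 to 1013, and for QDR3, at 331 against 463 to 526. Control 2 was low for SCJ1, at 591 against 759.8 to 825.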

How the results depend on the processing

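ARG7 was called higher in 20 of 23 alternatives, and its difference stayed between 1.01 and 1.26. It missed the threshold without the arrays that stand apart (1.15) and within them (1.23, with 1 spermine array). Over single arrays left out (1.14 to 1.22), it missed the threshold without spermine 3. The count of called genes was 46 with array weights (34 higher, 0.666%, and 12 lower, 0.235%) and 17 with a term for the arrays that stand apart; over single arrays left out it ran from 0 by limma (without spermine 3, where 294 genes had an unadjusted p under 0.05) to 4 (without control 1). At an unadjusted p under 0.05, array weights gave 701 genes. The weights ran from 0.438 to 2.68 in controls, lowest for the controls that stand apart. The replicate number as a block, which the labels do not give as a pairing, left 2 genes called, ARG7 and BIO5, and a methionine list median of 0.39. With 64 added to the signals the lysine and methionine medians were 0.16 and 0.10. Array weights put the lysine median at 0.11. Without the arrays that stand apart it was 0.18, and within them 0.49; there the histidine, methionine and phosphate medians were 0.27, 0.10 and 0.20. Over single arrays left out, the lysine median ran from 0.17 to 0.42, the histidine median from 0.50 to 0.74 and the phosphate median from 0.14 to 0.46. No median of the 13 lists changed sign in any alternative, and 144 of 160 named genes kept theirs in all. The lists were picked by the size of their medians, and many of the genes by their differences, on these same arrays. Kept signs are therefore no independent check. Where values moved, the cause was not tested. Signals near background limit BIO5, BNA2, OPT2, STR3 and YHI9.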

Other observations

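Genes of nitrogen source use and lipid synthesis also had members above control, although neither list reached a median of 0.25 in size. Of 14 tested genes under nitrogen catabolite repression, 4 stood above control at an unadjusted p under 0.05. They were the ammonium permeases MEP2 and MEP3, the allantoate permease DAL5 and OPT2, of the oligopeptide transporter family. DAL5 overlapped between the groups. OPT2 had 24.8, 7.68, 16.6, 10.7 and 31.2 on the controls, around the background of 17.6, and 32.2, 33.2 and 56.0 with spermine. The list median was 0.16, or -0.01 without spermine array 1. MEP2 had 83.9, 78.6, 66.8, 60.5 and 78.95 on controls 1 to 5 and 108, 95.4 and 117 with spermine (log2 0.54 ± 0.18). GAP1, the general amino acid permease, is controlled by nitrogen too and differed by -0.10 ± 0.31, with overlapping groups. Among 14 genes of inositol and phospholipid synthesis, 12 lay above control (median 0.20), and besides INO1 the choline kinase gene CKI1 and the phospholipid methyltransferase gene OPI3 were above control at that p, with differences of 0.49 ± 0.14 and 0.41 ± 0.14, both without overlap. Of 23 ergosterol genes, 10 lay above control and 13 below, with a median of -0.02. At that p, ERG8 and ERG12 were above (0.50 ± 0.19 and 0.49 ± 0.19) and ERG3 and ERG6 below (-0.54 ± 0.12 and -0.30 ± 0.13). Of these only ERG3 did not overlap between the groups, and the probe set of ERG12 may bind several transcripts. ERG6 differed by -0.44 without the arrays that stand apart, -0.03 within them and -0.19 without spermine array 2.

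The enterobactin transporter gene ENB1 had 651, 309, 359.9, 298 and 516 on controls 1 to 5 and 507, 843 and 1571 with spermine (log2 1.11 ± 0.32, or 0.68 without spermine array 3, 1.31 without the arrays that stand apart and 0.60 within them), while the median of 26 iron regulon genes was 0.04. Of the cell wall genes, TIR1, a mannoprotein, had 2944, 2118, 1862, 878 and 2389 on the controls and 1166, 544 and 1794 with spermine (log2 -0.86 ± 0.37, or -0.39 without spermine array 2), with control 4 as its lowest control, as for the biotin genes.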
